A study of Mus musculus with 2 samples.

Results

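Mitochondrial ribosome genes are the nuclear genes for the proteins of the ribosome inside mitochondria. They were taken here as the protein-coding mouse genes whose symbol begins with Mrpl or Mrps followed by a digit. Of the 43346 genes in the tables, 77 met this rule. The reference annotation, GENCODE M21, has 78 such genes, and the other one, Mrpl33, matched no gene identifier in the tables and was not analysed here. By the structural names of the proteins, 50 members belong to the large subunit and 26 to the small subunit. Mrps36 was counted in neither, because its product is known as a component of the 2-oxoglutarate dehydrogenase complex.

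The values come from total RNA-seq of the midbrain of B6NCrl mouse embryos of mixed sex at embryonic day 11.5. There was 1 group with 2 biological replicates and no treatment. Tissue of 109 embryos was pooled for replicate 1 and of 88 for replicate 2, and each library began with 10 ng of RNA longer than 200 nt to which ERCC spike-ins (synthetic RNAs) were added. The gene tables summed to 41760197 and 49256468 expected counts, of which 38884247 and 45975100 lay on genes. All 9 midbrain markers reached 1 TPM in both libraries, with Otx2 at 169 and 171 TPM, while none of 6 Hox genes of the hindbrain did. Blood was present, with all 8 erythroid markers at 1 TPM and Hbb-y at 8327 and 8295 TPM, as were all 5 endothelial, all 5 mesenchymal and all 5 microglia and macrophage markers. The share of the members' RNA that came from these other cells was not tested, and in bulk tissue fewer cells of a type and less RNA per cell cannot be told apart.

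The mitochondrial ribosome makes the few proteins encoded by mitochondrial DNA, all of them subunits of the respiratory chain or of ATP synthase. Its ribosomal RNAs are transcribed inside the organelle, but its proteins are encoded in the nucleus, translated in the cytosol and imported. Some descend from bacterial ribosomal proteins and bear names beginning with u or b, such as uS14m, and others were added during mitochondrial evolution and bear names beginning with mL or mS. Symbols and structure do not always match: Mrps30 (mL65) and Mrps18a (mL66) are proteins of the large subunit.

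The genes of this family lie on 17 chromosomes, with at most 11 on 1 of them, and a few of their promoters are shown because they differ in the short motifs often found near housekeeping start sites. RefSeq windows of 300 bases (250 before the start and 50 from it on, GRCm38.p6, the coordinates of mm10) were matched for 68 members by symbol. No window was matched for Mrpl4, Mrpl13, Mrpl15, Mrpl19, Mrpl38, Mrpl54, Mrps28, Mrps34 and Mrps35. The sequences below run 5′ to 3′ on the gene's strand and stop at base 30 after the start. Capitals mark exact matches, on either strand, to the ETS motif CCGGAAG, the NRF1 motif GCGCATGC or the YY1 motif AAGATGG, named for the transcription factors known to bind such letters. Mrps21 is the most abundant member (start on the minus strand, chr3:95871485-95871764), Mrpl52 holds both an ETS and a YY1 match (plus strand, chr14:54426659-54426938), Mrpl9 holds an NRF1 match on both strands at overlapping letters (plus strand, chr3:94443086-94443365), and Mrpl35 is one of the lowest pair (minus strand, chr6:71823755-71824034).
Mrps21: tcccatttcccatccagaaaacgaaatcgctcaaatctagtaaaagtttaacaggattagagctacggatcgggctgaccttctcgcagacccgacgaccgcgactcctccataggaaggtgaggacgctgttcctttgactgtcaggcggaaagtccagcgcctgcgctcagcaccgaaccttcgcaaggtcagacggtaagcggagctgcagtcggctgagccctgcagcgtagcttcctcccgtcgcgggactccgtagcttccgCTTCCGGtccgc
Mrpl52: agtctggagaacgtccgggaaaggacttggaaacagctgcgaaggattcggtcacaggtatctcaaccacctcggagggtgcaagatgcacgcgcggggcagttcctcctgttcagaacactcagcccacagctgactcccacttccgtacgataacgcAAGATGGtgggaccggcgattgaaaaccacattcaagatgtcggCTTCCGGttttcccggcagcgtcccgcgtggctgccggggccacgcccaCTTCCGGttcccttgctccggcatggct
Mrpl9: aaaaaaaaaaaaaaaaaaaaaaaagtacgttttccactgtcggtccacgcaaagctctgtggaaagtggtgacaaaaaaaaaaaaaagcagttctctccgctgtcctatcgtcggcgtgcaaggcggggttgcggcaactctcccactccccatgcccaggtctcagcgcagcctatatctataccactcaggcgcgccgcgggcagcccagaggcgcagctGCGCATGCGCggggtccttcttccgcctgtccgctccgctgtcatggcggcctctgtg
Mrpl35: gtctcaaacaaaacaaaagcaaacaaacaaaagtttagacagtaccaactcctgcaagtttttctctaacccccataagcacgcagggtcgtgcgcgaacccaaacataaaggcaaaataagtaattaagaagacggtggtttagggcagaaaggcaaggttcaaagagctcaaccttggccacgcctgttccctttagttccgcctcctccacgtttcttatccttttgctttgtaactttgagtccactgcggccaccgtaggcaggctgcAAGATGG

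In these windows the ETS match of Mrps21 and the YY1 match of Mrpl35 lie just after the start, and the NRF1 match of Mrpl9 and 1 of the ETS matches of Mrpl52 lie before it. The full window of Mrpl35 holds a second YY1 match further on, at base 37 after the start. Over the 68 members with a window, 25 held the ETS letters (36.8%), against 13.4% of the 16522 protein-coding genes with a window and 20.2% of the 9823 of those at 1 TPM in both libraries. The YY1 letters were in the windows of 13 members (19.1%), against 7.26% of all and 8.35% of detected genes. The NRF1 letters were in the windows of 7 members (10.3%), against 4.11% and 6.17%. At least 1 of these 3 motifs was present in 37 of the 68 members (54.4%) and in 31.0% of detected genes. No motif test was run, and a match describes letters and not binding.

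The other motifs had shares near or below those of all genes. The SP motif GGGCGG was in 34 of 68 windows, against 51.0% of all and 70.6% of detected genes. CACGTG, the E-box, was in 5 (7.35% against 9.18% of all genes), TGACGTCA, the CRE motif, in 2 (2.94% against 2.64%), and TCAAGGTCA, the ERR motif, in 0 (against 0.387% of all genes). The median GC content of the members' windows was 58.2%, against 57.0% for all genes and 61.3% for detected genes, and the median observed over expected CpG was 0.819, against 0.586 and 0.762. The 37 members with an ETS, NRF1 or YY1 match had median levels of 94.6 and 94.2 TPM in replicates 1 and 2, and the 31 without one had 67.6 and 71.6 TPM. Both sets spanned nearly the whole range of the family, from 18.6 to 269 TPM with a match and from 18.6 to 207 TPM without.

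Many members share a start region with a gene on the other strand. In the reference annotation 20 of 77 (26.0%) had another gene starting within 1000 bases upstream in the opposite direction, against 10.8% of all protein-coding genes and 15.7% of those at 1 TPM in both libraries. For 18 of them (23.4%) the partner was protein-coding, against 6.77% of all and 10.2% of detected genes. Some partners also serve translation or mitochondria. Mrps12, for the decoding-centre protein uS12m, starts 172 bases from Sars2, the mitochondrial seryl-tRNA synthetase, at 105 and 99.5 TPM against 18.5 and 20.3 TPM for Sars2. Mrpl49 (mL49) starts 59 bases from Fau, which encodes a cytosolic ribosomal protein, at 62.9 and 68.9 TPM against 421 and 481 TPM. Mrps27 (mS27) starts 81 bases from Ptcd2, a mitochondrial RNA-processing factor, and their levels were close, at 43.2 and 47.4 TPM against 43.2 and 42.2 TPM. Mrpl32 (bL32m) starts 75 bases from the proteasome gene Psma2, at 105 and 105 TPM against 355 and 377 TPM. Of the 18 protein-coding partners 15 were lower than the member in both libraries and 3, Psma2, Fau and Ska3 (beside Mrpl57), were higher.

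A pair of members, Mrps11 and Mrpl46, also lie head to head, with RefSeq starts 42 bases apart on chromosome 7 (78783131 on the plus strand and 78783089 on the minus strand). In the reference annotation their longest models overlap, so they are not among the 20. Mrps11 had 55.7 and 68.0 TPM in replicates 1 and 2, and Mrpl46 had 67.1 and 61.8 TPM. The ratio of Mrps11 to Mrpl46 was therefore 0.829 in one library and 1.1 in the other, and whether counting used strand is not known from the labels, so reads of the overlap cannot be told apart.

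Every one of the 77 members was detected, at 17 TPM or more in each library, where TPM is a length-normalized share of all transcripts in a library and detection meant 1 TPM in both. By comparison 12496 of 21474 protein-coding genes (58.2%) reached 1 TPM. The members' median was 80.8 TPM in replicate 1 and 80.2 TPM in replicate 2, against 18.6 TPM in both for detected protein-coding genes. TPM divides by transcript length, and the median effective (usable) length in replicate 1 was 884 bases for the members and 2485 for detected protein-coding genes. These comparisons thus hold per length only. By mean TPM over both libraries all 77 lay above the median of detected protein-coding genes and 63 above their upper quartile, with percentiles from 50.1 to 96.1. In replicate 2 alone Mrpl1 (17.2 TPM) and Mrpl35 (17.4 TPM) were below that library's median of 18.6 TPM. Together they summed to 7293 and 7436 TPM and to 0.438% and 0.450% of the counts on genes.

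**Figure D1:**
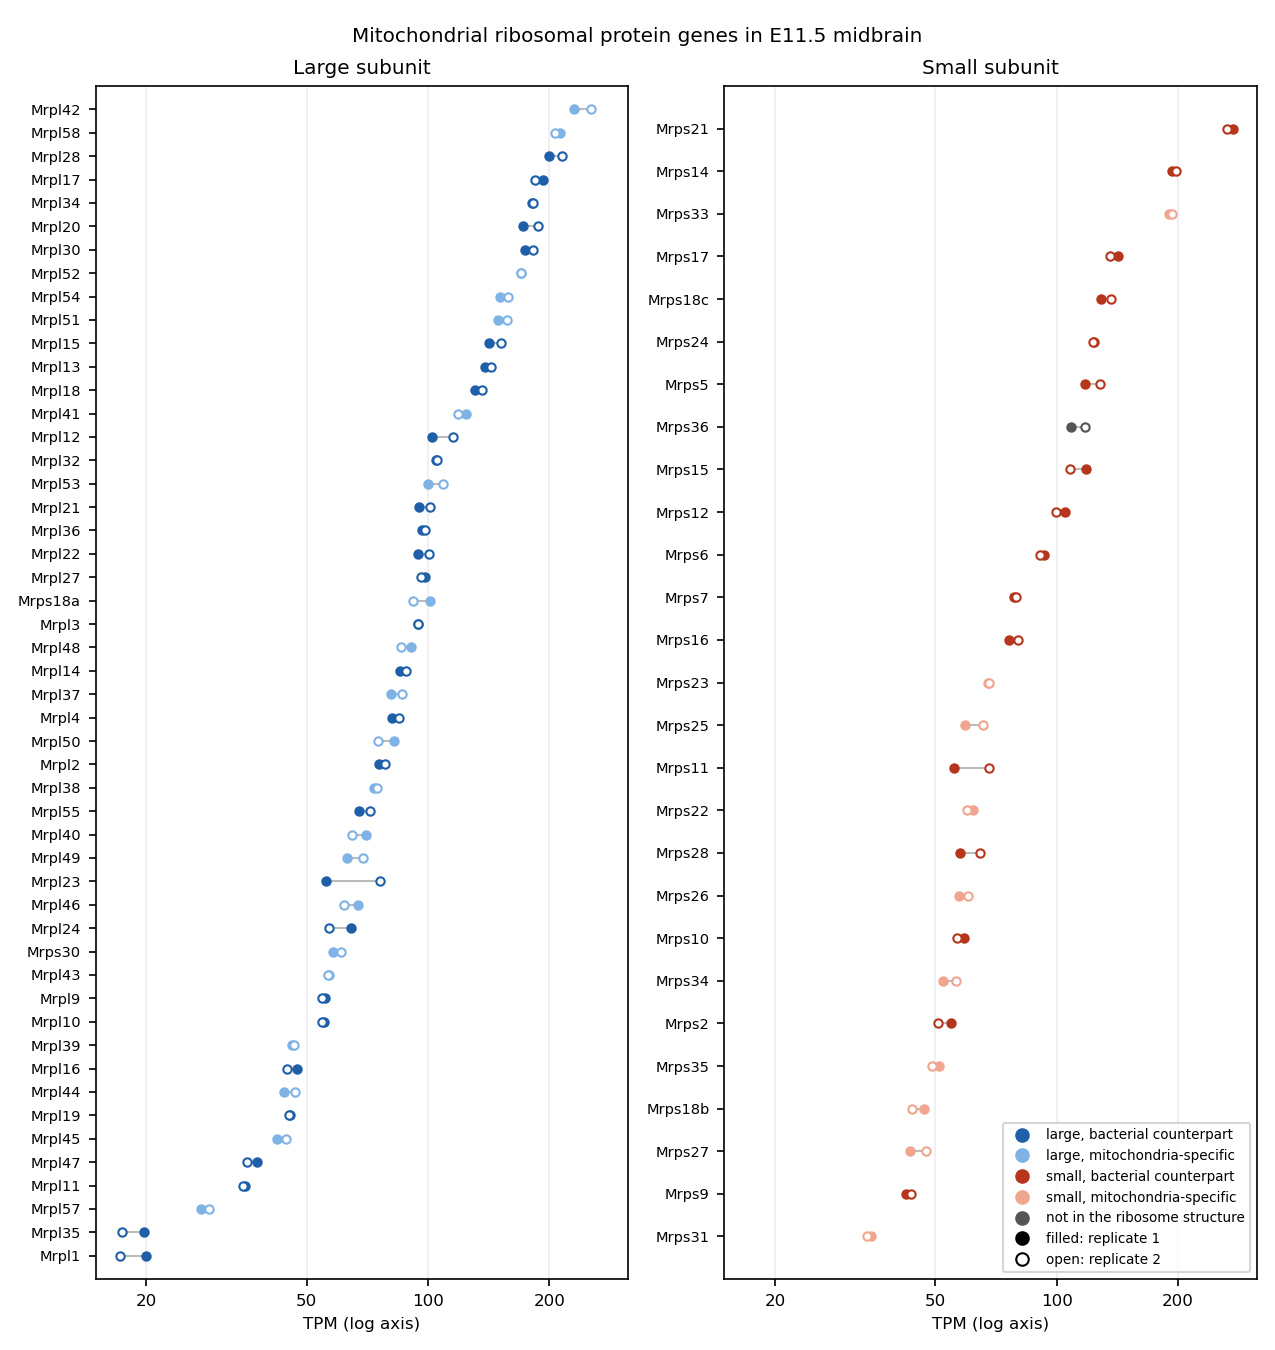
TPM (log axis) of each large-subunit gene (left) and small-subunit gene (right, with Mrps36), filled for replicate 1 and open for replicate 2, coloured by subunit and by whether the protein has a bacterial counterpart. Levels run from Mrpl1 and Mrpl35 at under 20 TPM to Mrps21 at 273 and 265 TPM, and the points of a gene mostly lie close together, with Mrpl23 the widest pair.

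The most abundant large-subunit genes were Mrpl42, Mrpl58 and Mrpl28. Mrpl42 (chromosome 10, 95480805 to 95501940, minus strand), a mitochondria-specific protein (mL42), had 230 and 253 TPM. Mrpl58 (chromosome 11, 115403752 to 115412674, plus strand) had 213 and 207 TPM; its product mL62 is related to peptide release factors and is known to free stalled ribosomes. Mrpl28 (bL28m, chromosome 17, 26123500 to 26126613, plus strand) had 199 and 215 TPM. At the other end stood Mrpl1 (uL1m, a protein of the ribosomal stalk by the exit site, chromosome 5, 96209493 to 96266727, plus strand) at 20.0 and 17.2 TPM. Mrpl35 (bL35m, chromosome 6, 71812997 to 71826969, minus strand) was next at 19.8 and 17.4 TPM. Mrpl1 and Mrpl35 did not differ from each other beyond their spread, since each had a higher value in replicate 1 than the other had in replicate 2.

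Mrpl10, Mrpl11 and Mrpl12, whose products lie together, did not have equal TPM. Mrpl12 (bL12m), which is present in several copies on the stalk that binds translation factors, had 102 and 116 TPM. Mrpl10 (uL10m), the base of that stalk, had 55.0 and 54.6 TPM, and Mrpl11 (uL11m), which lies beside it, had 35.0 and 34.8 TPM. Mrpl12 was thus 1.86 and 2.11 times Mrpl10, and 2.92 and 3.32 times Mrpl11. Mrpl57 (mL63) was the third lowest member of the family, at 27.3 and 28.6 TPM.

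Among small-subunit genes, Mrps21, Mrps14 and Mrps33 led. Mrps21 (bS21m, chromosome 3, 95862634 to 95871519, minus strand) had the highest level of all members, 273 and 265 TPM. Mrps14 (uS14m, chromosome 1, 160195215 to 160202170, plus strand) had 193 and 198 TPM, and the mitochondria-specific Mrps33 (mS33, chromosome 6, 39801804 to 39810988, minus strand) had 190 and 193 TPM. The lowest were Mrps31 (mS31, chromosome 8, 22411361 to 22429665, plus strand) at 34.6 and 33.8 TPM and Mrps9 (uS9m, chromosome 1, 42851233 to 42905683, plus strand) at 42.3 and 43.5 TPM. Mrps21 exceeded Mrpl35, the second lowest member, 13.8-fold and 15.2-fold, so the ends of the order were far apart relative to the spread between libraries. Mrps36, outside the ribosome, lay within the family's range at 109 and 118 TPM.

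The 3 Mrps18 genes are paralogs whose products occupy different places: Mrps18c encodes the counterpart of bacterial S18 (bS18m), Mrps18b the small-subunit protein mS40 and Mrps18a the large-subunit protein mL66. Mrps18c had 128 and 137 TPM. Mrps18a had 101 and 91.8 TPM. Mrps18b had 47.0 and 43.8 TPM. The order was the same in both libraries with no overlap between genes, Mrps18c being 2.73 and 3.12 times Mrps18b.

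Large-subunit genes had a higher median than small-subunit genes, and genes with a bacterial counterpart a higher one than mitochondria-specific genes. The large-subunit median was 83.7 and 85.8 TPM and the small-subunit median 64.9 and 68.0 TPM, a log2 ratio of 0.35 ± 0.02 (SD, n = 2), or 1.28-fold. The 45 genes with a bacterial counterpart had medians of 94.6 and 94.2 TPM and the 31 mitochondria-specific genes 67.1 and 65.7 TPM, a log2 ratio of -0.51 ± 0.02 (SD, n = 2). The lowest class was the 10 mitochondria-specific small-subunit genes, at 54.7 and 58.025 TPM, against 98.9 and 95.1 TPM for the 16 small-subunit genes with a bacterial counterpart. In the large subunit the medians were 94.6 and 94.2 TPM for 29 genes with a counterpart and 80.8 and 75.2 TPM for 21 without. The large-subunit median was thus the higher among mitochondria-specific genes only. Among genes with a bacterial counterpart the small-subunit median was slightly higher in both libraries. These medians are descriptions of fixed sets of genes, and genes are not replicates, so no test was made.

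Transcript length differed between the ancestry classes. The subunits were close in length, with median effective lengths of 911 bases for the large and 898 for the small. Mitochondria-specific genes had a median effective length (the usable length of the transcript models, by which TPM divides) of 1099 bases in replicate 1, against 814 bases for genes with a bacterial counterpart. In CPM (counts scaled to the library's total on genes, not divided by length), the same 2 classes had medians of 52.4 and 54.9 against 53.3 and 54.7. Pooled over both subunits, the difference between these classes was thus seen per length and not in CPM. Within the small subunit the CPM medians were 50.3 and 51.1 with a bacterial counterpart and 45.9 and 46.5 without, and within the large subunit 57.3 and 56.9 with one and 57.04 and 55.3 without. The subunits still differed in CPM, at 57.2 and 56.1 for the large subunit and 47.4 and 48.1 for the small.

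Across the 77 members TPM and effective length had a Spearman correlation of -0.72, against -0.29 across 12482 detected protein-coding genes. TPM holds length in its denominator and all points share the libraries, so these are descriptions. CPM had a correlation of 0.21 with effective length in the members. The highest member was 14.5 times the lowest in TPM but 6.57 times in CPM, and the coefficient of variation across members was 57.1% and 38.5%. The family was therefore more even in its share of reads than in its level per length. Effective length ran from 313 bases for Mrpl52 to 3616 bases for Mrpl35, whereas the coding part ran only from 87 to 442 codons with a median of 196. The lowest pair in TPM, Mrpl1 and Mrpl35, had effective lengths of 2987 and 3616 bases, and the highest, Mrps21, had 337 bases.

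**Figure D2:**
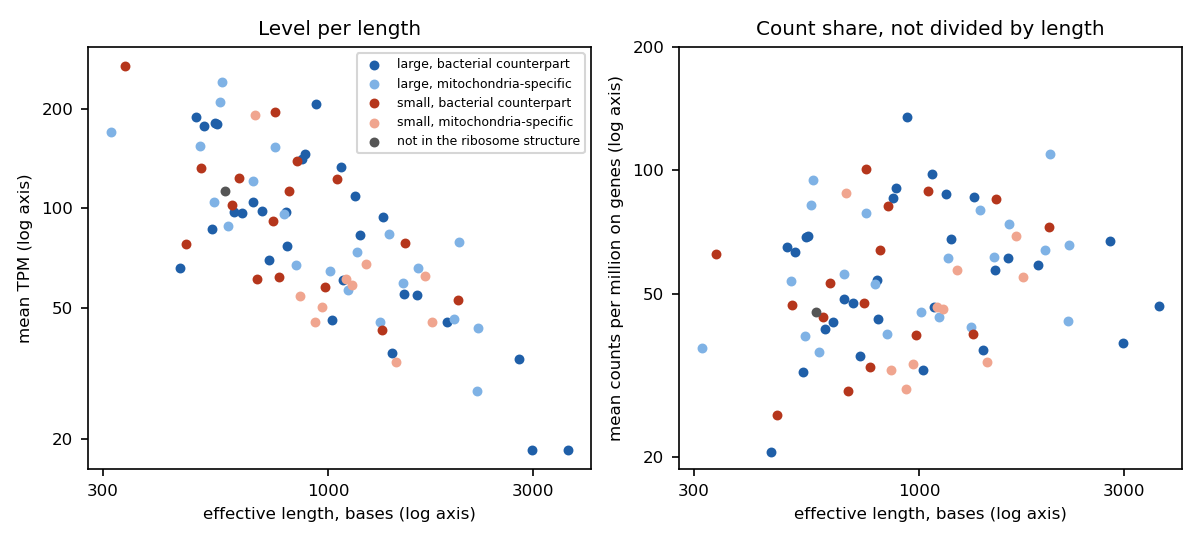
Each point is a member, coloured by subunit and ancestry as labelled, against the effective length of its transcripts in replicate 1 (bases, log axis). Mean TPM over both libraries falls with length (left), while mean CPM (right, log axis) does not, with Spearman correlations of -0.72 and 0.21 over 77 genes.

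The transcript models to which the reads were assigned add a limit to these levels. For 53 of 77 members (68.8%) at least 90% of the gene's TPM lay on transcripts that the reference annotation types as protein-coding, close to the 69.4% of detected protein-coding genes. For 15 members (19.5%) less than 50% did, against 7.23% of detected protein-coding genes. In 15 members, not all the same genes, the leading transcript, that with the largest share of the gene's TPM, was typed as noncoding. This was not counted for other genes. Mrps5, at 45.3% and 46.0% on coding models, had a coding leader, and Mrpl48, at 55.2% and 54.75%, a noncoding one. Of these leaders 6 were targets of nonsense-mediated decay, a pathway that degrades mRNAs with an early stop codon (Mrpl3, Mrpl13, Mrpl32, Mrpl48, Mrps11 and Mrps14). Another 3 were retained intron (Mrps24, Mrps25 and Mrps26) and 6 processed transcript (Mrpl15, Mrpl19, Mrpl20, Mrpl23, Mrpl47 and Mrpl51). For Mrps14 the leading model Mrps14-201, a nonsense-mediated decay type, held 89.1% and 89.4% of the gene's TPM, which left 20.95 and 20.89 TPM on coding models. For Mrps26 (mS26) the retained-intron model Mrps26-201 held 94.5% and 94.96%. For Mrpl51 (mL51) the processed transcript Mrpl51-202 held 57.6% and 55.4%, and coding models held 7.77 and 7.26 TPM.

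Model length differed together with type. Of the 15 genes with a noncoding leader 14 had a coding model in the tables. In 11 of the 14 the noncoding leader was shorter than every coding model. Mrps26-201 is 1057 bases long and the coding Mrps26-202 is 4278. In Mrps25 (mS25) the leader is 565 bases and the coding model 6073, and in Mrpl19 (bL19m) 419 and 5000 bases. Leaders were ranked by TPM, and by expected counts, which are not divided by length, the order could differ. The coding Mrpl19-201 had 1969 and 2299 counts, against 188 and 232 for the leader Mrpl19-203. In Mrpl51 the leader kept more counts, 1742 and 2102 against 550 and 614 for the coding Mrpl51-201. Such reversals were not counted over the members. For Mrpl32 the tables held a single transcript, typed as a nonsense-mediated decay target, and its 1 reference coding transcript was not in them. The types come from a later annotation (M21) than the one the tables used (M4). Whether the leading models reflect the RNA in the tissue or the models on offer was not tested. With coding models alone 76 members, all but Mrpl32, still reached 1 TPM in both libraries, with medians over the 77 of 62.1 and 63.2 TPM.

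**Figure D3:**
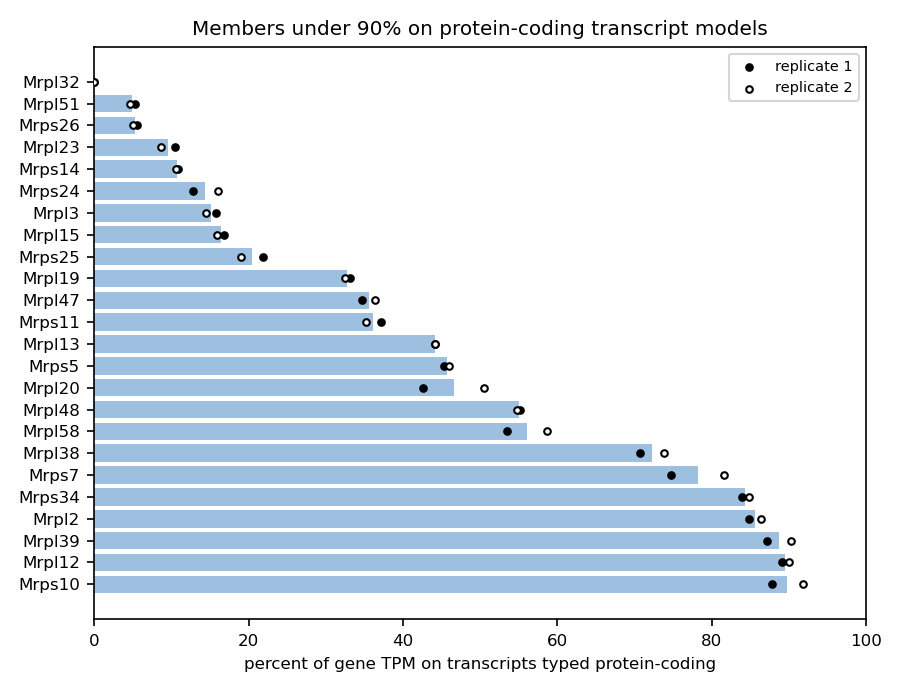
Percent of gene TPM on transcripts typed protein-coding for the 24 members with a mean under 90%, with bars at the mean of both libraries, filled points for replicate 1 and open points for replicate 2. The order from Mrpl32 at 0% to Mrps10 is much alike in both libraries, and 15 members lie under 50%.

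The leading transcript was nearly always the same in both libraries. Of the 58 members with more than 1 transcript, 57 had the same leader (98.3%). Among the 9585 genes of any type at 1 TPM in both libraries with more than 1 transcript, 91.4% did. The exception was Mrpl55 (bL31m), where Mrpl55-201 led in replicate 1 with 36.1% of the gene's TPM and Mrpl55-203 in replicate 2 with 39.5%. All of these models of Mrpl55 are typed as protein-coding.

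Between the libraries no member was called different at 2-fold. The comparison used a two-sided exact binomial test on rounded expected counts with TMM-scaled library sizes and Benjamini-Hochberg adjustment over 17148 genes. Genes with an adjusted p under 0.05 that also differed at least 2-fold were called. Over all genes tested 481 were called (2.80%), over detected protein-coding genes 23 (0.184%), and of the 77 members 0. At an unadjusted p under 0.05 lay 30 members (39.0%), against 49.2% of detected protein-coding genes. Without the fold minimum 17 members were higher in replicate 2, against 18.0% of all genes tested, and 7 were lower, against 17.0%. Among the 5751 detected protein-coding genes within the members' range of mean TPM, 23.6% were higher and 24.4% lower. With spike-in totals in place of TMM the split was 35 higher and 2 lower. That scaling also raised the median log2 ratio of all genes tested, from 0.01 to 0.07. The share of all genes higher or lower under it was not counted, so this split cannot be read as particular to the members. An edgeR exact test with an assumed coefficient of variation of 0.1 called 0 members after adjustment, against 0.962% of all genes tested, and 1 member at an unadjusted p under 0.05, against 6.46%. The binomial test compares these 2 libraries and their sampling noise, not conditions.

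Differences were small. Of the 77 members 67 lay within 1.1-fold between the libraries (87.0%), against 58.5% of detected protein-coding genes and 71.2% of the 5751 within the members' range of mean TPM. Within 1.2-fold lay 75 members (97.4%), against 84.5% and 95.5%. The median absolute difference of log2(TPM + 1) was 0.07, against 0.10 for detected protein-coding genes. The order of the members was almost the same in both libraries, with a Spearman correlation of 0.988 over 77 genes. The median log2 ratio of replicate 2 to replicate 1 was 0.03, against 0.01 for all genes tested. Across 14043 genes edgeR gave a common coefficient of variation of 7.82% between the libraries.

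The deposited TPM intervals, which lie around the posterior mean TPM, did not overlap between the libraries for 14 of 77 members, against 22.4% of the 13895 genes at 1 TPM and 30.6% of the 5751 protein-coding genes in the members' range of mean TPM. They were Mrpl1, Mrpl12, Mrpl20, Mrpl24, Mrpl28, Mrpl35, Mrpl42, Mrpl49, Mrpl50, Mrps11, Mrps15, Mrps18a, Mrps27 and Mrps28. Of these 14, 8 were higher in replicate 2. Mrps11 (uS11m) moved most among them, from 55.7 to 68.0 TPM, a log2 ratio of 0.31 with an adjusted binomial p of 3.0e-07. Mrpl1 was lower in replicate 2, from 20.0 to 17.2 TPM, a log2 ratio of -0.25 with an adjusted binomial p of 1.3e-05. These ratios were the extremes of the family apart from Mrpl23.

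**Figure D4:**
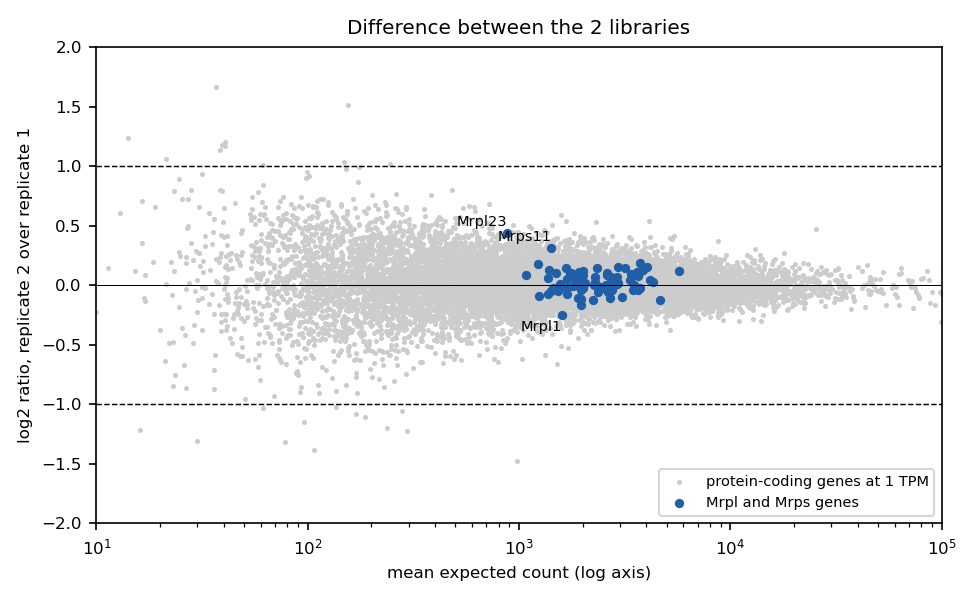
Log2 ratio of replicate 2 to replicate 1 (TMM-scaled expected counts) against the mean expected count (log axis) for the members (blue) and detected protein-coding genes (grey), with dashed lines at 2-fold. All 77 members lie between -0.25 (Mrpl1) and 0.44 (Mrpl23).

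Mrpl23 (uL23m, at the mouth of the peptide exit tunnel, chromosome 7, 142532686 to 142540747, plus strand) had the widest difference, 55.8 TPM in replicate 1 and 75.8 TPM in replicate 2, a log2 ratio of 0.44. It shares sequence with a processed pseudogene, Mrpl23-ps1 (chromosome 2, 74591330 to 74591909, minus strand), which was given 113 and 108 TPM. Mrpl23 itself received 675 and 1088 expected counts and the pseudogene 1460 and 1663, so the member held 31.6% and 39.5% of their sum. The deposited intervals of Mrpl23, 30.7 to 76.2 TPM and 55.7 to 90.6 TPM, overlapped. Its values are therefore uncertain, because reads could be divided between near-identical copies. Of the other 4 pseudogenes of the family in the tables, the highest value in a library was 1.28 TPM.

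Lists of nuclear genes for assembly factors, translation factors and tRNA synthetases of mitochondria had lower medians than the members, while ribosomal proteins that carry other symbols did not. The assembly, translation factor and synthetase lists had median effective lengths of 1496, 1763 and 2271 bases in replicate 1, against 884 for the members. How much of the difference in TPM goes with length was not tested. The 5 mitochondrial ribosomal proteins without an Mrp symbol had medians of 86.9 and 99.0 TPM. Chchd1 (mS37) led with 199 and 203 TPM, followed by Dap3 (mS29) with 120 and 113 TPM and Aurkaip1 (mS38) with 86.9 and 99.0 TPM, and Gadd45gip1 (mL64) was lowest with 28.5 and 29.1 TPM. Their range thus lay inside that of the 77 members.

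The 28 genes for assembly of the ribosome and modification of its RNA, all at 1 TPM, had medians of 22.7 and 23.8 TPM. Mterf3 had 64.8 and 56.6 TPM, the RNA-binding Fastkd2 55.7 and 54.0 TPM, the helicase gene Dhx30 49.9 and 54.5 TPM and Ybey, an RNase, 3.61 and 4.03 TPM. The 13 translation factor genes had medians of 21.5 and 22.8 TPM. Among them Tufm, the elongation factor that brings tRNAs to the ribosome, had 99.4 and 109 TPM, above the members' median, its exchange factor Tsfm 65.4 and 62.0 TPM, the translocase Gfm1 38.7 and 37.5 TPM and the release factor Mtrf1 7.78 and 7.56 TPM. The 17 mitochondrial aminoacyl-tRNA synthetase genes had medians of 18.4 and 16.04 TPM. Lars2 stood apart at 641 and 640 TPM, above every member of the family, and its value is uncertain because reads from repeated or ribosomal RNA-like sequence on it were not looked for. It was followed by Rars2 at 64.4 and 59.4 TPM, with Mars2 lowest at 2.22 and 2.16 TPM. No gene of these 3 lists was called at 2-fold. Without the fold minimum 5 were higher in replicate 2 and 3 lower of the 28, and 2 higher and 1 lower of the 13. Of the 17, 5 were higher and 1 lower. The shares over all genes tested were 18.0% higher and 17.0% lower.

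Factors for transcription and RNA upkeep in mitochondria (10 genes) had medians of 23.5 and 23.8 TPM and a median effective length of 1704 bases in replicate 1. Slirp, which stabilizes mitochondrial mRNAs, had 215 and 234 TPM, the single-strand DNA-binding protein gene Ssbp1 145 and 139 TPM, the transcription and packaging factor gene Tfam 82.0 and 75.4 TPM and Mterf1a 8.71 and 7.58 TPM. Most of these factors were therefore below the first quartile of the members, 56.7 TPM.

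The organelle's own RNAs had far higher medians than the members, though not every one of these RNAs was higher. mt-Rnr2, the RNA of the large subunit, had 1980 and 1863 TPM, and mt-Rnr1, that of the small subunit, 463 and 466 TPM. Their ratio was 4.27 and 3.997, although a ribosome holds 1 of each. Whether both RNAs were captured and amplified alike was not tested, so the ratio need not be their balance in the tissue. The 13 mitochondrial mRNAs had medians of 1034 and 1112 TPM. mt-Atp6 had 6498 and 5198 TPM, mt-Atp8 5633 and 4815 TPM and mt-Cytb 2556 and 2215 TPM, and the lowest, mt-Nd4l, was the only one called at 2-fold, from 79.9 to 13.3 TPM. Without the fold minimum 10 of the 13 were lower in replicate 2 and 2 higher, against 17.0% and 18.0% of all genes tested. mt-Atp8, mt-Atp6 and mt-Nd4l overlap neighbouring genes, so their division of reads is uncertain.

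Cytosolic ribosomal proteins and nuclear subunits of oxidative phosphorylation, which assemble with the subunits made inside mitochondria, were both above the members. Of 85 cytosolic ribosomal protein genes 82 reached 1 TPM, and the medians were 573 and 609 TPM, led by Rpl41 (2040 and 2304 TPM), Rps19 (1357 and 1507 TPM) and Rpl32 (1385 and 1421 TPM), with Rpl10l listed at 0. Of 80 nuclear oxidative phosphorylation genes 79 reached 1 TPM, and the medians were 253 and 275 TPM, led by Atp5b (1848 and 1798 TPM), Cox6b1 (716 and 743 TPM) and Cox4i1 (715 and 734 TPM), with Cox6a2 lowest at 0.13 and 0 TPM. The median effective lengths of the cytosolic ribosomal protein and oxidative phosphorylation lists were 566 and 577 bases in replicate 1, against 884 for the members. Neither list had a call at 2-fold. Without the fold minimum 56 of 82 cytosolic ribosomal protein genes were higher in replicate 2 and 5 lower. Of 79 oxidative phosphorylation genes 41 were higher and 4 lower, beside 17 and 7 of the 77 members. Over all genes tested 18.0% were higher and 17.0% lower, and genes with more counts pass at smaller differences. The median log2 ratios were 0.09 for the cytosolic ribosomal protein genes and 0.07 for the oxidative phosphorylation genes.

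**Figure D5:**
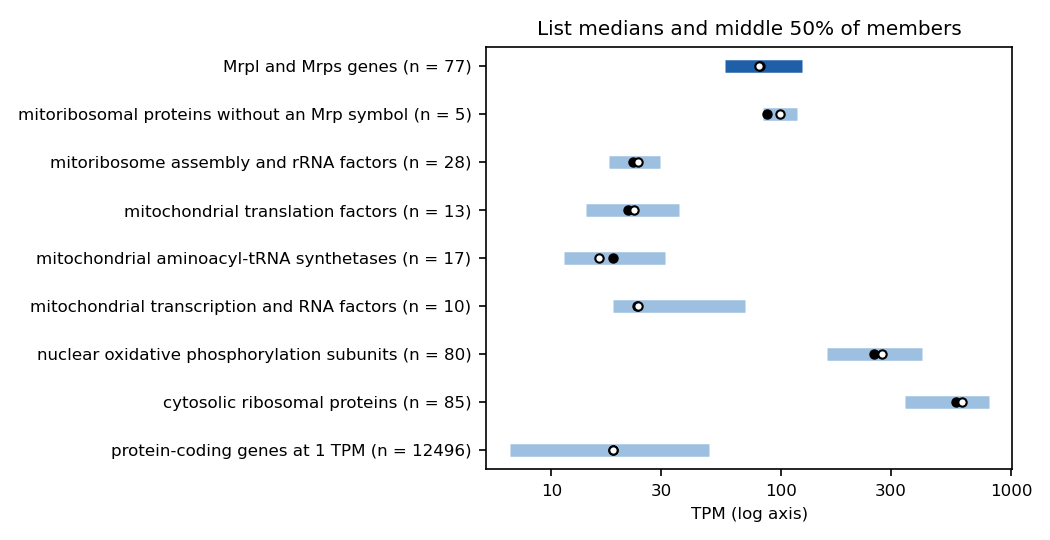
Median TPM (log axis) of each list in replicate 1 (filled) and replicate 2 (open), with bars from the first to the third quartile of the members' mean TPM and the number of genes in parentheses. Mrpl and Mrps genes (81 TPM) lie between the mitochondrial translation, assembly and transcription factors, with medians of 17 to 24 TPM, and the oxidative phosphorylation subunits and cytosolic ribosomal proteins.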

How the data were processed

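Total RNA-seq tables of 2 libraries were used, 1 per biological replicate of a single group. The authors' tables hold, per the file headers, an expected count (an estimated number of reads), TPM, FPKM, interval bounds of TPM and FPKM (treated as a signal) and each transcript's percent of its gene. The accompanying notes name assembly mm10 and annotation M4. The aligner, the quantifier and the use of strand are not stated in the labels or headers. TPM is scaled over all rows, and spike-ins took 15.2% and 14.8% of it. The cited Smart-seq protocol amplifies cDNA, so tests and intervals cover counting error only.

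Symbols came from GENCODE M21 by identifier without version (42462 genes matched). Expected counts were rounded, scaled by TMM (edgeR 4.0.16, R 4.3.3), and tested where a gene's counts summed to 20 or more (scipy 1.17.1). Log2 ratios used a prior count of 1. The depth was 38884247 and 45975100 expected counts on genes, and members had at least 675 and 1088. The test was checked on simulated counts with sampling noise only, which cannot show how it behaves with spread between replicates or from amplification. Promoter windows are from RefSeq. Members and gene lists were chosen with earlier results of these data known. Members named are the 5 highest and 5 lowest, the 3 highest and 2 lowest of each structural group, those called or with noncoding or differing leading transcripts, and the Mrps18 paralogs, and of each other list the 3 highest and the lowest. Marker lists are given by counts and 1 gene at most, and some other genes the rule takes are not reported here. Others were named after their values were seen. Alternatives were other scalings (with DESeq2 1.42.0 size factors), thresholds, units, windows and leaving out each replicate.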

Additional observations from a re-analysis of the deposited data

How the results depend on the processing

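No paired analysis was possible because there is 1 group. All 77 members stayed at 1 TPM or more, also as FPKM, at 5 TPM and in each library alone. The median of large-subunit genes was 54.7 as FPKM and 99.7 as TPM rescaled without spike-ins, and that of small-subunit genes 42.9 and 78.2, changes of unit that scale every gene alike within a library. With subunits taken from symbols the log2 ratio of large to small was 0.32. Without either replicate it ranged from 0.34 to 0.37, and the log2 ratio of mitochondria-specific to bacterial-counterpart genes from -0.52 to -0.49. Without the fold minimum 24 members (31.2%) were called between the libraries, against 0 at 2-fold. Of all genes tested 18.0% were then higher and 17.0% lower in replicate 2. Of protein-coding genes in the members' range of mean TPM 23.6% were higher and 24.4% lower. The members' median log2 ratio of replicate 2 to replicate 1 was 0.03 and became 0.09 with spike-in totals, less than 1 SD of the members' ratios (0.10). That of all genes tested went from 0.01 to 0.07. In all, 40 values of these results moved by less than 1 SD between replicates or members, or, for counts, by less than 1.5 times. Another 6 moved further. They were the medians of each subunit as FPKM and without spike-ins, the ratio with subunits from symbols, and the calls without the fold minimum. Among list medians and motif counts 46 values stayed within those limits, among them SP from 34 to 27 members, YY1 from 13 to 10 and NRF1 from 7 to 5 in the 150 bases at the downstream end. Of the list medians and motif counts, 6 passed them. With the posterior mean TPM, mitochondrial mRNAs went to 1400 TPM, erythroid markers to 2133 TPM, mesenchymal markers to 109 TPM and hindbrain markers to 0.13 TPM. With those 150 bases, CRE went to 1 member and E-box to 2 members. The causes were not tested. With 2 libraries, 1 pool of embryos each, an SD rests on a single difference, and amplified reads are not independent molecules.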
